A study of Mus musculus with 4 samples.

Results

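Apoe and 9 genes of cellular lipid efflux were followed in cells sorted for EGFP from PDGF-B-driven mouse gliomas. The 10 genes, Apoe, Abca1, Abcg1, Lpl, Lrp1, Ch25h, Nr1h2, Nr1h3, Soat1 and Apobec1, were chosen by name, and each was read from the brightest probe set, by its mean on the 4 arrays, that is annotated to that gene alone. Of the 10, 8 had such a probe set, 1 each, out of 19937 genes measured. Expression of Nr1h2 and Soat1 was not analysed here.

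The late-onset group, labelled high-grade, held 2 samples, each of cells from 1 tumour, here tumour 1 and tumour 2. The early-onset group, labelled low-grade, held 2 samples, each pooling cells of 2 tumours, here pool 1 and pool 2. Both groups were C57/Bl6 mice given a retrovirus for PDGF-B and EGFP as embryos, at embryonic day 14. Cells carrying EGFP were sorted from the gliomas that arose, so no sample without PDGF-B is among them. The labels give no ages. The array values are log2 probe set summaries, in which a difference of 1 is a doubling of signal.

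Cells shed excess cholesterol by passing it to lipoprotein particles outside the cell, and in the brain apolipoprotein E is the main protein of those particles. The transporters ABCA1 and ABCG1 load lipid onto them, and receptors such as LRP1 take the particles up again. The liver X receptors, nuclear receptors switched on by oxidised cholesterol, induce Abca1, Abcg1, Apoe and Lpl. Astrocytes are the main source of apolipoprotein E in healthy brain, while microglia and macrophages, which engulf lipid-rich debris, use the same efflux genes.

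Liver X receptors bind DNA as partners of retinoid X receptors at a pair of direct repeats. The 250 bases upstream of the gene start were searched for that arrangement because Abca1 and Apoe are textbook targets of these receptors. Sequence outside those bases was not searched, so a window without a match does not show that a gene lacks such a site. Sequences are from RefSeq, build GRCm38.p6, 5′ to 3′ on the strand of each gene, and the capitals in the Abca1 window mark the match to GGTTA and GGTCA with 5 bases between them, which lies on the opposite strand.
Abca1, chr4:53159896-53160145, minus strand: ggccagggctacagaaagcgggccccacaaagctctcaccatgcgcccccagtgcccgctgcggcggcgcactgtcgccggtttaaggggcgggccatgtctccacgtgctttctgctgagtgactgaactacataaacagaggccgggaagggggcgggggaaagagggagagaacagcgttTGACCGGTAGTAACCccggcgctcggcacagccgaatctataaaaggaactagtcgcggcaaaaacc
Apoe, chr7:19699189-19699438, minus strand, the most upstream of its 3 windows: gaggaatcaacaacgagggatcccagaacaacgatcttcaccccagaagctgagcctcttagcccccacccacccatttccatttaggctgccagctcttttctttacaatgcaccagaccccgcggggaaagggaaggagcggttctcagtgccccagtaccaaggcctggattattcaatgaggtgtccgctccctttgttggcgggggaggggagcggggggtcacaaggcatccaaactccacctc

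The match in the Abca1 window lay between positions -67 and -53 from the start. This relaxed motif was chosen after 3 others had been searched, so its match is a description and no test. Of 32851 mouse promoter windows of that length 0.0457% hold this motif. It was found in 1 window, that of Abca1, of 11 that covered 8 of the 10 genes. The promoters of Abcg1 and Lpl were not analysed here. The stricter repeat, AGGTCA and AGGTCA with 4 bases between, is in 0.0152% of all windows. The repeat unit AGGTCA alone is in 14%, and GAGGAAG, 1 sequence bound by the myeloid factor PU.1, is in 10.6%. Each was found on either strand in 0 of the 11. Other forms of the PU.1 site were not searched. The relaxed and the stricter repeat differ in letters, so neither holds the other, while the stricter repeat holds AGGTCA.

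Transcripts of 7 of the 8 genes fell in late-onset cells, with log2 fold changes from -3.59 for Lpl to -0.77 for Lrp1, and none rose (at an unadjusted p of 0.05, the limma fit also gave 7 lower and 0 higher). Among all genes 14.7% were called, 8.12% lower and 6.59% higher, at the same threshold, an adjusted p of 0.05. The balance over all genes turned with array medians subtracted, where 1658 genes were higher and 1423 lower, and among genes above the median, where 1507 were higher and 1246 lower, against 1313 higher and 1618 lower in the fit to all genes. The median log2 fold change of the 8 was -2.02, against -0.01 over all genes. In each of the 8 both tumours lay below both pools, as in 30.4% of all genes. At least 2-fold lower and called were 5 of the 8, and 3.53% of all genes. Adjusted p-values are from limma over all genes, with Benjamini-Hochberg adjustment. Leaving out a pool cut the calls over all genes. Without pool 1 or without pool 2 the fit called 4 of the 8, Apoe, Lpl, Abcg1 and Apobec1.

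**Figure D1:**
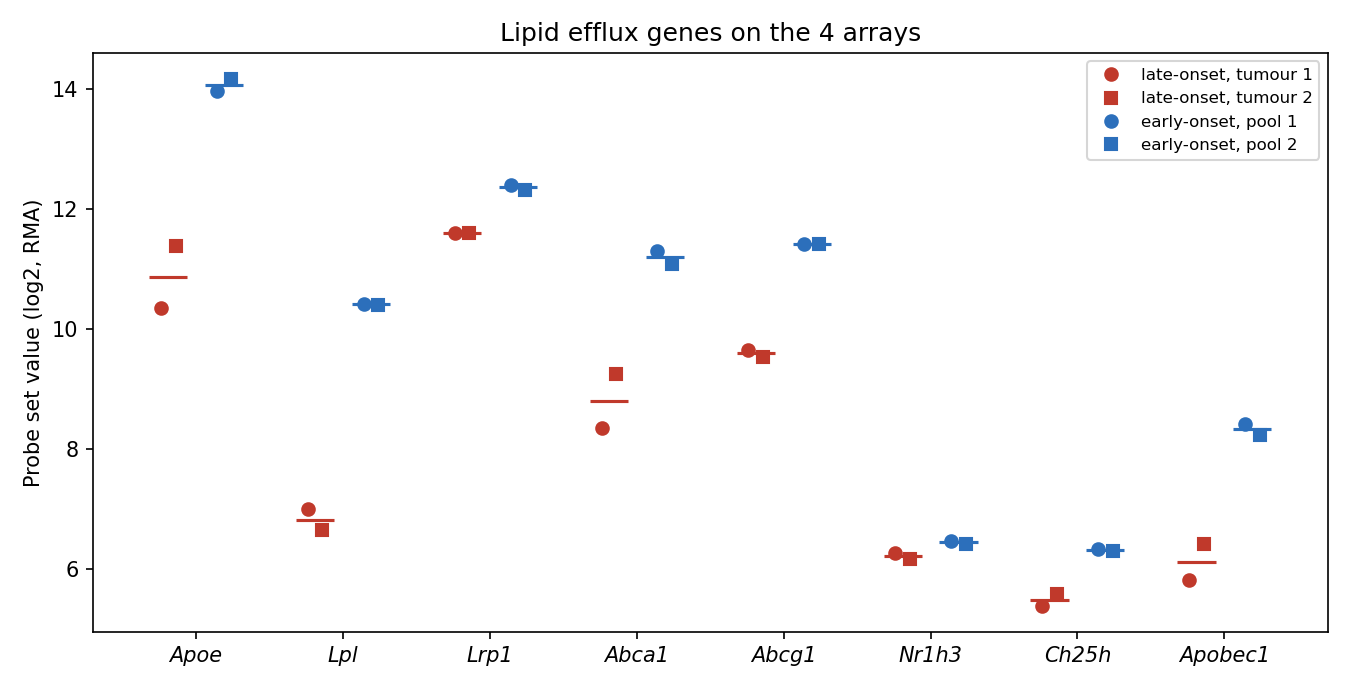
Probe set values (log2) of the 8 measured genes on the 4 arrays. Red points are the late-onset tumours and blue points the early-onset pools, circles sample 1 and squares sample 2, and the short lines are group means. Red lies below blue for each gene, with the narrowest gap for Nr1h3 and the widest for Lpl.

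Apoe encodes the lipid carrier itself. Its log2 value was 10.35 in tumour 1 and 11.38 in tumour 2, against 13.97 in pool 1 and 14.17 in pool 2. The tumours lay far below the pools and also stood 1.03 apart from each other, whereas the pools were 0.20 apart. Each pool joins 2 tumours and each late-onset sample is 1, so pooling and group cannot be told apart in these gaps. The mean was 10.87 ± 0.73 in late-onset cells and 14.07 ± 0.14 in early-onset cells (SD, n = 2 each), 9.17-fold lower (log2 fold change -3.20, SE 0.34, 95% interval -4.05 to -2.34, limma adjusted p 0.00651). Only 65 of 19937 genes had a lower fold change. The log2 fold change was -3.71 without tumour 2 and -2.68 without tumour 1.

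Lpl encodes lipoprotein lipase, which splits triglycerides in lipoproteins so that cells can take up the fatty acids. It stood at 6.9997 in tumour 1 and 6.64 in tumour 2, against 10.42 in pool 1 and 10.40 in pool 2. The groups were far apart and the samples within each close together. It was 12.04-fold lower in late-onset cells (log2 fold change -3.59, SE 0.15, limma adjusted p 0.0013), the lowest fold change of the 8. Between the tumours its order was the reverse of Apoe, with tumour 2 lower by 0.36 on the log2 scale.

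Lrp1, the endocytic receptor for apolipoprotein E and many other ligands, changed least among the called genes. Its values were 11.59 in tumour 1 and 11.60 in tumour 2, against 12.41 in pool 1 and 12.33 in pool 2. It fell 1.70-fold with hardly any spread within groups (log2 fold change -0.77, SE 0.10, limma adjusted p 0.00998). Without pool 1 its limma adjusted p was 0.0705 and without pool 2 it was 0.0613, at log2 fold changes of -0.73 and -0.81.

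Both efflux transporters fell. Abca1, which hands phospholipid and cholesterol to lipid-poor apolipoproteins, was at 8.34 in tumour 1 and 9.25 in tumour 2, against 11.30 in pool 1 and 11.09 in pool 2. Late-onset cells had 5.28-fold less (log2 fold change -2.40, SE 0.30, limma adjusted p 0.00964), and tumour 2 stood 0.90 above tumour 1. Without pool 1 the limma adjusted p was 0.0582 and without pool 2 it was 0.0522, at log2 fold changes of -2.29 and -2.50. Abcg1, which moves cholesterol onto more mature particles, was at 9.66 in tumour 1 and 9.53 in tumour 2, against 11.41 in pool 1 and 11.42 in pool 2. Its samples differed little within either group, and late-onset cells had 3.54-fold less (log2 fold change -1.82, SE 0.10, limma adjusted p 0.00195).

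Of the liver X receptor genes Nr1h2 and Nr1h3 only Nr1h3 was measured, and it did not pass the threshold. Nr1h3, which encodes liver X receptor alpha, was at 6.26 in tumour 1 and 6.16 in tumour 2, against 6.46 in pool 1 and 6.41 in pool 2. The groups did not overlap, but the difference was small (log2 fold change -0.22, 95% interval -0.48 to 0.03, limma adjusted p 0.206). That interval holds no fall larger than 0.48 on the log2 scale. Its signal lay below the median of all genes, 7.44.

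Ch25h makes the oxysterol 25-hydroxycholesterol. It was at 5.38 in tumour 1 and 5.58 in tumour 2, against 6.32 in pool 1 and 6.29 in pool 2. This probe set was dim on each array, yet the 2 groups were clearly apart, with a value 1.77-fold lower in late-onset cells (log2 fold change -0.82, SE 0.11, limma adjusted p 0.0122). Without pool 1 the limma adjusted p was 0.077 and without pool 2 it was 0.0775, at log2 fold changes of -0.80 and -0.84.

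Apobec1 encodes the cytidine deaminase that edits the apolipoprotein B transcript in intestine, and it is also expressed in macrophages. It was at 5.80 in tumour 1 and 6.40 in tumour 2, against 8.42 in pool 1 and 8.23 in pool 2. Late-onset cells had 4.66-fold less (log2 fold change -2.22, SE 0.22, limma adjusted p 0.00565), with tumour 2 higher than tumour 1 by 0.60. Apobec1 shared its profile over the 4 arrays with Abca1 more closely than with any other of the 8, at a distance of 0.28 between mean-centred log2 profiles. The closest pair was Lrp1 and Ch25h, at 0.15, and Apoe lay 0.85 from Abca1, its nearest.

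**Figure D2:**
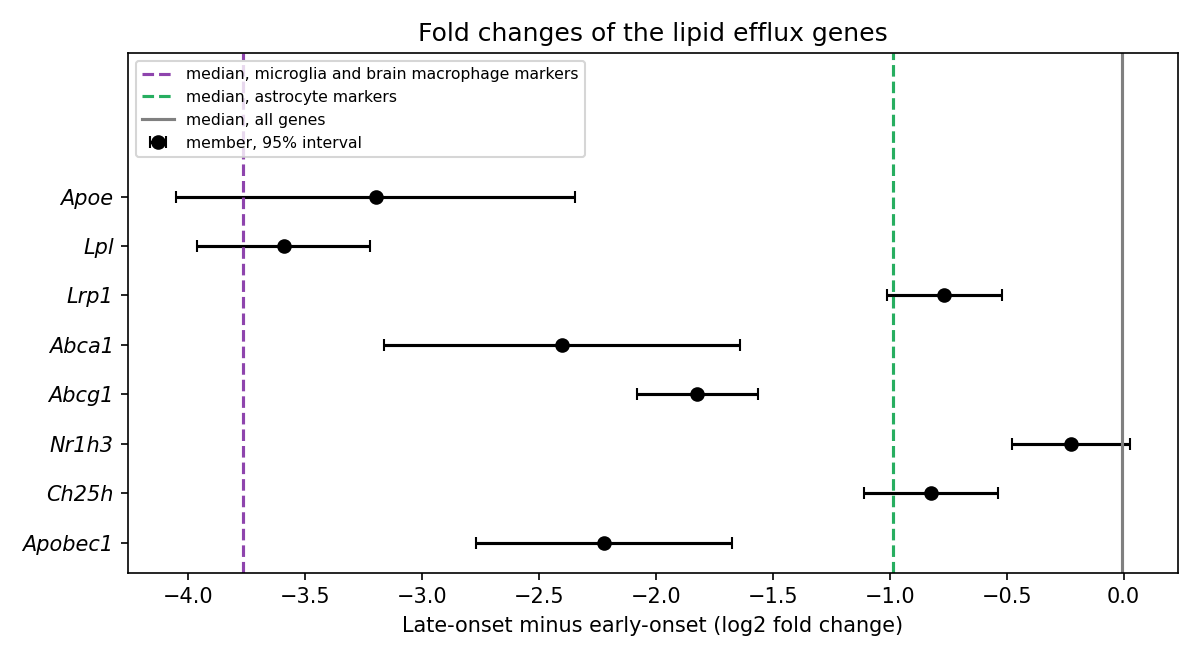
Log2 fold change, late-onset minus early-onset, of each measured gene with its 95% interval from the limma fit. Vertical lines mark the median over all genes (-0.01), over astrocyte markers (-0.99) and over microglia and brain macrophage markers (-3.77). The interval of Nr1h3 reaches 0.03, and those of the other 7 genes lie below 0.

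Markers of the cells that use these genes also moved. Of 24 measured microglia and brain macrophage markers 23 fell and 0 rose (24 and 0 at an unadjusted p of 0.05 in the limma fit), at a median of -3.77. Their summed signal, on the linear scale, was 2677 and 4338 in the tumours, against 53019 and 45081 in the pools. Cx3cr1, the microglial fractalkine receptor, was at 6.89 and 7.15 in the tumours, against 11.11 and 10.91 in the pools. Csf1r, the receptor on which macrophages depend, was at 6.997 and 7.41 in the tumours, against 11.37 and 11.25 in the pools. Both genes were chosen after their values were seen. Array summaries have no true 0, so none of the markers can be called absent. The one marker not called was Tmem119, at -1.13 (limma adjusted p 0.0688), which passed without tumour 1 (-1.57, limma adjusted p 0.0126).

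Of 16 astrocyte markers 9 fell and 0 rose (12 and 1 at an unadjusted p of 0.05 in the limma fit), at a median of -0.99. Their summed signal was 11448 and 12825 in the tumours, against 20040 and 23263 in the pools. Slc1a2, the main glutamate transporter of astrocytes, was at 9.39 and 9.69 in the tumours, against 11.39 and 11.55 in the pools. Of 12 oligodendrocyte progenitor markers 3 fell and 0 rose (8 and 0 at an unadjusted p of 0.05 in the limma fit), at a median of -0.44, and 11 had a fold change below 0, the lowest of them -1.81. Among these, Olig2 was at 11.93 and 11.89 in the tumours, against 12.09 and 12.12 in the pools, and Pdgfra at 13.24 and 13.20 in the tumours, against 13.63 and 13.71 in the pools. The Pdgfra call (-0.45) was lost without any 1 of the 4 samples (limma adjusted p 0.0795 to 0.229), after quantile normalization (0.0542) and after subtracting array medians (0.0588), and Olig2 was not called. Slc1a2, Olig2 and Pdgfra were also chosen after their values were seen. In sorted bulk cells, fewer cells of a type and less RNA per cell cannot be told apart, and the part of any of these marker groups in the fall of the lipid efflux genes was not tested.

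Measured against the microglial markers, the 8 genes had unequal fold changes. The fold changes of the 24 microglial markers ran from -4.70 to -0.93, at a median of -3.77. Their mean fell by 3.39 on the log2 scale. That mean was 6.534 in tumour 1 and 7.085 in tumour 2, low values that can limit its fall. The late-onset minus early-onset change of a gene's difference from that mean was 0.19 for Apoe and -0.20 for Lpl. Both genes fell by about as much as that mean and by less than the marker median. The change of this difference was 0.99 for Abca1, 1.17 for Apobec1 and 1.56 for Abcg1. It was 2.56 for Ch25h, 2.62 for Lrp1 and 3.16 for Nr1h3, which changed least. Ch25h and Nr1h3 were dim already in the pools, at means of 6.305 and 6.435, and had less room to fall than bright genes. All these differences are descriptions of 2 samples a group, with no test.

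The difference between the late-onset tumours split the genes as well. Tumour 2 was higher for Apoe by 1.03, for Abca1 by 0.90, for Apobec1 by 0.60 and for Ch25h by 0.20. It was 0.01 higher for Lrp1. It was lower for Abcg1 by 0.13, with a difference of -0.09 for Nr1h3 and -0.36 for Lpl. Of the 24 microglial markers 20 were higher in tumour 2, at a median of 0.52, and of the 16 astrocyte markers 13 were, at a median of 0.30. All 9 markers of mature oligodendrocytes were higher in tumour 2, at a median of 0.89, and so were all 10 endothelial markers, at a median of 0.73. Over all genes the median was 0.00233. The part of these cell types in the gap between the tumours was not tested. Between the pools no gene of the 8 differed by more than 0.21. A pool joins 2 tumours, so the gap between pools is not like that between single tumours.

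**Figure D3:**
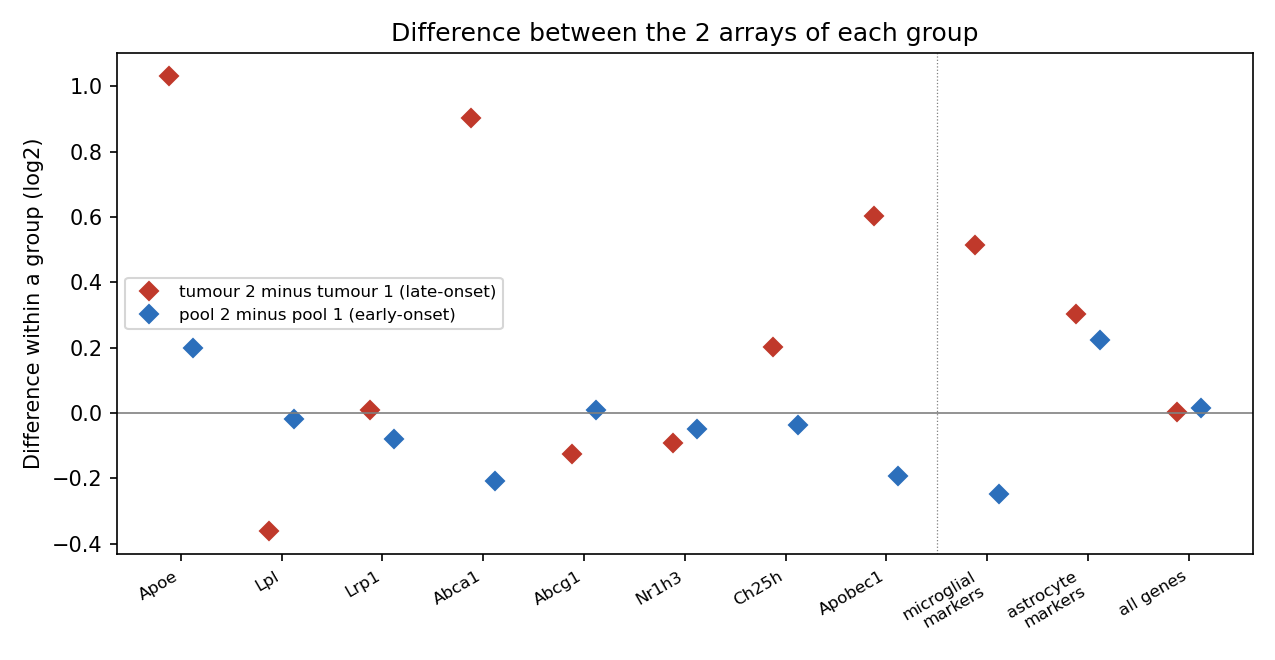
Difference between the 2 samples of each group (log2), for the 8 genes and as medians over microglial markers, astrocyte markers and all genes. Red diamonds are tumour 2 minus tumour 1 and blue diamonds pool 2 minus pool 1. Each pool joins cells of 2 tumours. Apoe (1.03) and Abca1 (0.90) lie above the microglial median (0.52), and Lpl (-0.36) lies below 0.

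The genes whose profiles over the 4 arrays lay nearest to Apoe, by Euclidean distance between mean-centred log2 values, were Lgals3bp (distance 0.26), Abcd2 (0.28), Ctsh (0.40), Cd72 (0.41) and Itgb5 (0.43). Lgals3bp encodes a secreted galectin-binding glycoprotein and stood at 7.13 and 8.24 in the tumours, against 11.03 and 11.23 in the pools. Abcd2 encodes a peroxisomal fatty acid transporter, Ctsh a lysosomal protease, Cd72 a lectin-like receptor of leukocytes and Itgb5 an integrin chain. Nearest to Abca1 were Spi1 (0.07), P2ry6 (0.16), F11r (0.18), Pla2g7 (0.20) and Itga6 (0.23). P2ry6 encodes a receptor for extracellular nucleotides, F11r a junctional adhesion protein and Itga6 an integrin chain. Spi1 encodes PU.1, the transcription factor that defines the myeloid lineage, and its log2 fold change was -2.38, against -2.40 for Abca1. With 4 arrays in 2 distant groups, such likeness rests on the group difference and on the gap between the tumours. Without pool 1 or pool 2 the calls of Ctsh, Itgb5, Spi1 and Pla2g7 were lost (limma adjusted p 0.0533 to 0.068).

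Apoe lies in a cluster of apolipoprotein genes, and its neighbours were examined after its own value was seen. Apoc1, next to it, encodes a small apolipoprotein of the same particles and was at 5.98 and 6.10 in the tumours, against 7.40 and 7.92 in the pools. Its log2 fold change was -1.62 (SE 0.19, limma adjusted p 0.00845). Apoc4, the next gene on that side, stood at -0.30 (limma adjusted p 0.132). On the other side Tomm40, a mitochondrial import pore gene, stood at 0.33 (limma adjusted p 0.164) and Nectin2, an adhesion gene, at 0.23 (limma adjusted p 0.295).

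Beyond the 10 genes, 170 further genes of lipid transport and its regulation stood on 9 lists, and 154 were measured. Of these 32 fell and 9 rose, against 8.12% lower and 6.59% higher among all genes. The 9 that rose became 4 after quantile normalization and 4 after cyclic loess, while 32 and 33 fell. Without pool 1 the fit called 15 of the 154, of which 0 rose, and without pool 2 it called 20, of which 1 rose. Leaving out a pool also cut the calls over all genes. Some genes stand on more than 1 list.

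Of 16 other apolipoprotein genes 3 fell and 1 rose, at a median of -0.15. With Apoc1 fell Clu (-1.34), which encodes clusterin, a lipid-binding chaperone of astrocytes, and Saa3 (-0.95), an acute-phase apolipoprotein, while Apoa2 rose (0.88). Clu was at 10.33 and 10.39 in the tumours, against 11.53 and 11.87 in the pools. Without pool 1 or pool 2 the list had 2 calls, and those of Saa3 and Apoa2 were lost (limma adjusted p 0.0629 to 0.19). The Saa3 call was also lost without tumour 1 (0.112) and under each of the other scalings (0.0557 to 0.0624).

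Of 21 other lipid transporters of the ABC family 8 fell and 0 rose (13 and 1 at an unadjusted p of 0.05 in the limma fit), at a median of -0.31. Abcd2 (-3.12), Abca9 (-2.13), Abca6 (-2.06) and Abcb4 (-1.37), a phosphatidylcholine transporter of liver, fell most. Abcd2 was at 5.22 and 6.07 in the tumours, against 8.83 and 8.70 in the pools. Abcg4, a close relative of Abcg1 in neural cells chosen after its value was seen, fell by 0.72, a call lost without either pool (limma adjusted p 0.0685 and 0.0906). The list had 4 calls without pool 1, and 5 without pool 2 and without tumour 2.

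Of 22 other lipoprotein and scavenger receptor genes 4 fell and 2 rose, at a median of -0.27. The macrophage scavenger receptor genes Stab1 (-2.96) and Msr1 (-1.85), the Lrp1 paralogue Lrp1b (-1.72) and Mylip (-2.24), whose product marks lipoprotein receptors for degradation, fell. Mylip, itself induced by liver X receptors, was at 6.89 and 7.24 in the tumours, against 9.27 and 9.35 in the pools. The genes that rose, chosen after their values were seen, were the apolipoprotein E receptor gene Vldlr (0.49) and the HDL receptor gene Scarb1 (0.47). Neither was called after quantile normalization or cyclic loess (limma adjusted p 0.0637 to 0.0764). Vldlr lost its call without any 1 of the 4 samples (0.0678 to 0.199), and Scarb1 without pool 1, pool 2 or tumour 2 (0.122 to 0.206). Without pool 1 the list had 3 calls, and Msr1 was not among them (limma adjusted p 0.051).

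Of 15 other genes of lipases and lipoprotein remodelling 5 fell and 0 rose (7 and 0 at an unadjusted p of 0.05 in the limma fit), at a median of -0.21. Pla2g7 (-2.21), a lipoprotein-associated phospholipase, Pltp (-1.93), the phospholipid transfer protein gene, Pla2g15 (-1.24), a lysosomal phospholipase, and Lipa (-1.05), the lysosomal acid lipase, fell most. Pltp was at 6.74 and 7.98 in the tumours, against 8.98 and 9.60 in the pools, with the tumours 1.24 apart. The list had 1 call without pool 1 and 2 without pool 2. Calls lost were Pltp and Pla2g7 without either pool (limma adjusted p 0.0533 to 0.204), and Lipa without pool 1 (0.0874), tumour 1 (0.0842) or tumour 2 (0.0601). Pltp was also lost with robust eBayes (0.0653).

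Of 21 genes of sterol trafficking and oxysterol metabolism 6 fell and 1 rose, at a median of -0.30. Gpr183 (-1.18), a receptor for oxysterols on immune cells, Cyp7b1 (-1.11), which breaks down oxysterols, and Plin2 (-0.999), the coat protein of lipid droplets, fell, and Cyp39a1 (0.94), an oxysterol hydroxylase, rose. Without pool 1 the list had 2 calls, with Gpr183, Plin2 and Cyp39a1 not among them (limma adjusted p 0.0639 to 0.0709). Without pool 2 it had 3, with Cyp7b1 not among them (0.0519), and without tumour 1 Plin2 was lost (0.0547).

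Of 18 genes of other lipid nuclear receptors and co-regulators 3 fell and 1 rose, at a median of -0.10. The co-activator gene Ppargc1a (-2.16) fell, at 5.44 and 5.69 in the tumours, against 7.70 and 7.75 in the pools. Of the retinoid X receptor genes, the partners of liver X receptors, Rxrg fell (-0.96), while Rxra stood at -0.55 (limma adjusted p 0.0568, and 0.0401, past the threshold, among genes above the median) and Rxrb at -0.11 (limma adjusted p 0.523), the last pair chosen after their values were seen. The co-activator genes Ncoa3 (-0.52) and Med1 (0.45) were called in opposite directions. Rxrg lost its call without either pool (limma adjusted p 0.0592 and 0.0846), and Ncoa3 and Med1 lost theirs without any 1 of the 4 samples (0.0598 to 0.226). Med1 was also not called after quantile normalization (limma adjusted p 0.0652) or cyclic loess (0.0749). The list had 1 call without either pool and 2 without either tumour.

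Of 19 other target genes of liver X receptors 6 fell and 1 rose, at a median of -0.11. Mertk (-3.95), a receptor for engulfing dead cells, fell most, at 5.52 and 6.23 in the tumours, against 10.03 and 9.62 in the pools. Mylip, Pltp and Apoc1, given above, followed. Srebf1, the target that drives fatty acid synthesis, rose by 0.61 (limma adjusted p 0.0421) and was chosen after its value was seen. Its call was lost without any 1 of the 4 samples (0.0548 to 0.195) and after quantile normalization (0.0615) and cyclic loess (0.0612). The list had 3 calls without pool 1 and 4 without pool 2.

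Of 22 measured genes of sterol synthesis and uptake, targets of SREBP2, 3 rose and 0 fell (11 and 0 at an unadjusted p of 0.05 in the limma fit), at a median of 0.29. These calls, all higher, make 13.6% of the list. Among all genes 6.59% were called higher and 14.7% in either direction. Of the 22, 1 had a fold change below 0. The synthesis genes Hsd17b7 (0.88), Cyp51 (0.67) and Fdps (0.43) rose. Cyp51, the lanosterol demethylase, was at 10.56 and 10.52 in the tumours, against 9.93 and 9.82 in the pools. After quantile normalization or cyclic loess 2 were called. Without pool 1 or without pool 2 the limma fit called 0 of the 22 (5 and 3 at an unadjusted p of 0.05), with adjusted p from 0.0504 to 0.258 for these genes. Fdps also lost its call without either tumour (0.0928 and 0.121), after quantile normalization (0.0736) and after cyclic loess (0.0874).

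Of 8 other genes of the APOBEC family and its editing partners, Rbm47 alone was called, and it was lower, 12.5% of the list. Among all genes 8.12% were called lower and 14.7% in either direction. Rbm47, an RNA-binding cofactor of Apobec1, fell with it, at 5.56 and 5.69 in the tumours, against 7.57 and 7.32 in the pools (log2 fold change -1.82, SE 0.13, limma adjusted p 0.00285). The list median was 0.05, and 2 of the 8 were called without tumour 1 and without tumour 2.

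**Figure D4:**
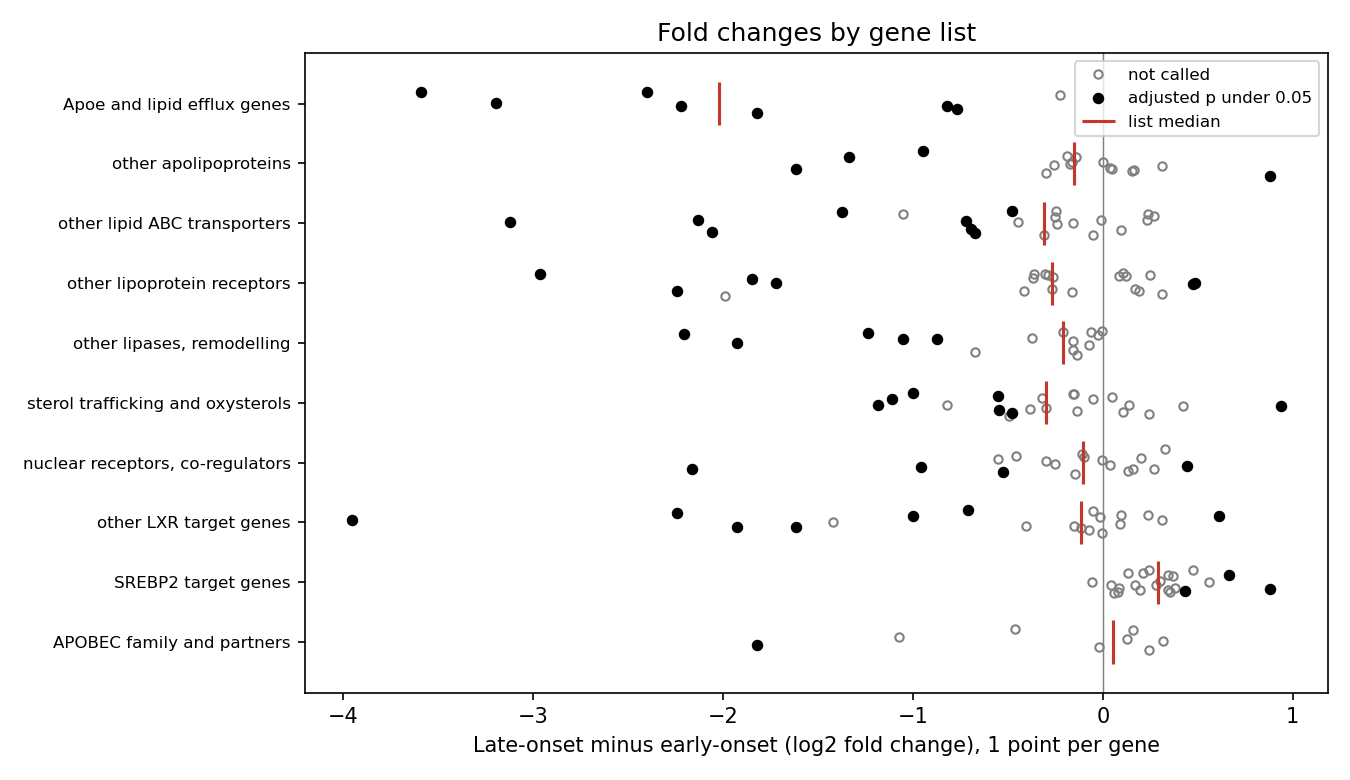
Log2 fold change, late-onset minus early-onset, with 1 point per gene for the lipid efflux genes and the 9 other lists. Filled points passed an adjusted p of 0.05 and red lines are list medians. The efflux genes have a median of -2.02, and the SREBP2 targets, at 0.29, lie mostly right of 0.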

How the data were processed

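The 4 samples of total RNA from EGFP-sorted mouse glioma cells were measured on biotin-labelled Affymetrix arrays, per the labels. The authors deposited log2 summaries per probe set. The submitters' processing notes name RMA and affy 3.4.2 without parameters. RMA puts arrays on one scale, which hides any change common to most genes. Values ran from 2.17 to 14.8, array medians from 6.63 to 6.71, and samples correlated at 0.988 between tumours, 0.992 between pools and 0.972 to 0.974 between groups.

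Of 34760 probe sets the platform annotation gave 21640 a single symbol, 1321 several and 11799 none. Entrez identifiers matched 21553 to RefSeq (GRCm38.p6). The probe set with the highest mean stood for each of 19937 genes. Late-onset minus early-onset was fitted with limma 3.58.1 in R 4.3.3 (lmFit, eBayes without trend, 2 residual and 3.27 prior degrees of freedom), with Benjamini-Hochberg adjustment over all genes and a threshold of 0.05; the script was tested on simulated data. Per the labels the samples are biological replicates, and 2 a group limit the precision. The genes and lists were chosen with earlier results of these data known. Named were the 10 genes, up to 4 called genes per list by fold change and the 5 nearest to Apoe and Abca1. Cell type marker lists covered microglia and brain macrophages, other macrophages, astrocytes, oligodendrocyte progenitors, oligodendrocytes, neurons, endothelium and pericytes. Alternatives changed the variance model, scaling, filter on dim genes, probe set rule, array weights, replicate block, threshold and samples.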

Additional observations from a re-analysis of the deposited data

How the results depend on the processing

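The direction of the 8 lipid efflux genes was the same under all 15 alternatives to the fit, or 14 for Ch25h, Nr1h3 and Apobec1, which fell below the median filter. Over these the log2 fold change ran from -3.71 to -2.68 for Apoe, -3.77 to -3.41 for Lpl, -2.85 to -1.95 for Abca1, -1.93 to -1.76 for Abcg1, -2.52 to -1.92 for Apobec1, -0.92 to -0.72 for Ch25h, -0.90 to -0.71 for Lrp1 and -0.27 to -0.17 for Nr1h3. Only a change of scaling could have turned a direction, since both tumours lay below both pools for each gene. With 1 probe set per gene, the variance, filter, probe set, weight and block settings left each fold change as it was. The count of 7 called genes was 5 of 5 among genes above the median and ranged from 4 to 7 when 1 sample was left out. Over all genes the count of 2931 was 850 to 2577 with 1 sample left out and 4539 at an adjusted p of 0.1. On the 9 other lists the count of 41 was 15 to 34 with 1 sample left out, the lone sample of a group being assumed to vary like the other group. With the replicate number as a block, 1833 genes were called over all genes and 7 of the 8. The labels do not say whether same-numbered samples were handled together. Deviations of same-numbered samples correlated at -0.04 over all genes, which cannot decide it. The block ended the calls of Lipa, Plin2, Ncoa3, Med1, Fdps, Vldlr, Scarb1, Srebf1 and Pdgfra (limma adjusted p 0.0538 to 0.0964), and brought that of Tmem119 (0.0412). With it the sterol trafficking list had 4 calls in place of 7 and the nuclear receptor list 2 in place of 4. Among genes above the median, fewer genes of each list were tested. There the apolipoprotein list had 2 calls of 3 genes in place of 4 of 16. The ABC list had 4 of 9 in place of 8 of 21, and the APOBEC list 0 of 4 in place of 1 of 8. At an adjusted p of 0.1 the SREBP2 list had 9 calls in place of 3 and the APOBEC list 2. Of 809 refits of 55 further named genes 89 lost a call, in 25 genes, 3 gained one and 0 reversed. The median over all genes was -0.02 after quantile normalization and cyclic loess and 0.05 after subtracting array medians.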

Other observations

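Markers of other cell types gave further values. Of 9 markers of mature oligodendrocytes 2 fell and 1 rose: the log2 fold change of Mobp stood at -2.62 and Cldn11 at 2.07, and the Mobp call was lost without either pool (limma adjusted p 0.108 and 0.137) and with robust eBayes (0.0504). Of 12 neuron markers 6 fell and 1, Tubb3 (1.86), rose. Of 9 perivascular and infiltrating macrophage markers 3 fell and 0 rose (7 and 0 at an unadjusted p of 0.05 in the limma fit), at a median of -0.43. All 9 had a fold change below 0. Their summed signal was 353 and 408 in the tumours, against 1124 and 806 in the pools, and the dimmest had a pool mean of 4.15. Of 9 pericyte and smooth muscle markers 2 fell and 0 rose, at a median of 0.06. Among all genes 8.12% were called lower and 6.59% higher. Mobp, Cldn11 and Tubb3 were chosen after their values were seen.

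Endothelial markers differed within groups. The median of tumour 2 minus tumour 1 was 0.73 and that of pool 2 minus pool 1 was -0.70, while for mature oligodendrocyte markers these were 0.89 and 0.63. Between late-onset and early-onset cells limma called 0 of the 10 (0 also at an unadjusted p of 0.05), at a median of -0.37.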
